A study of Mus musculus with 24 samples.

Results

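In wild-type mouse spleen, canonical CD8+ dendritic cells (C_CD8) were set against CD11b+ dendritic cells, using all genes and only the libraries of experiment batches C and D, the batches in which every subset compared was sequenced. The comparison held 6 of the 24 libraries of the series: 2 of C_CD8, 2 of the Esam-hi CD11b+ fraction and 2 of the Esam-lo CD11b+ fraction, with 1 library of each in each batch. The CD11b+ side was the mean of the fractions on the log scale, and each fraction was also compared alone. All 6 libraries came from Flt3 +/+ mice on a C57BL/6 x FVB/N F1 background, from cells sorted by flow cytometry, with cDNA made by the SMART-seq v4 low-input kit. The replicates came from independent experiments, per the series' design text. The sort gates, the age and number of the mice behind each library, and which of the alternative RNA isolations listed was used for which library were not given in the sources used here. A companion comparison used the same subsets and batches from Flt3 ITD/+ mice, which carry 1 copy of an activating internal tandem duplication in the receptor for the dendritic cell growth factor Flt3 ligand.

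Conventional dendritic cells of the spleen fall into a pair of lineages. Type 1 cells (cDC1, here the CD8+ cells) depend on the transcription factors Irf8, Batf3 and Id2. They carry receptors for dead cells such as Clec9a and are specialised in presenting dead-cell material on MHC class I to CD8 T cells. Type 2 cells (cDC2, here the CD11b+ cells) use Irf4, Zeb2 and Klf4, present mainly on MHC class II to CD4 T cells, and are split by the adhesion molecule Esam into a Notch2-dependent Esam-hi fraction and an Esam-lo fraction with monocyte-like genes. CD8a, CD11b (gene Itgam) and Esam name the sorted subsets, so their levels check the labels and are not results.

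The libraries held between 16161616 and 21270127 counts. Replicates of a group differed by 24.3 to 48.4 times the variance of sampling noise, and each was counted as 1 sample. The first principal component of the 6 libraries carried 53.9% of the variance and set C_CD8 (-95.2 and -97.9) apart from CD11b+ (24.6 to 59.3). The CD11b+ library nearest to C_CD8 was Esam-lo of batch C (replicate 1), at 24.6, and it also had the highest median level of the cDC1 list among CD11b+ libraries, at 20.5% of the C_CD8 mean. That median was 13.2% in the Esam-lo library of batch D and 6.90% and 5.92% in Esam-hi. Conversely, the median level of the cDC2 list in C_CD8 was 4.28% and 7.39% of the CD11b+ mean. In bulk libraries, fewer cells of a type and less RNA per cell cannot be told apart, and this touches every value below. Summed red pulp macrophage markers ran from 108 to 529.9 CPM (a gene's counts scaled by the library's total) in CD11b+ against 341 and 382 in C_CD8, and summed erythroid markers from 18.6 to 146 against 78.3 and 74.0. In both fractions these sums were higher in batch C. None of the 10 macrophage, 7 erythroid and 6 neutrophil markers tested was called by edgeR or DESeq2, and 0 of each had an unadjusted p under 0.05. The T cell list summed to 19.7 and 26.2 CPM in C_CD8 and to 33.6 to 54.2 in CD11b+, and Cd3e was at or below 4.03 CPM in every library. Of 12 T cell markers 1 (Cd5, -1.41) was lower in C_CD8. The part of these other markers in the results was not tested.

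The subsets differed widely. Of 17341 genes tested, 2516 were higher in C_CD8 (14.5%) and 2592 were lower (14.9%) at an adjusted p under 0.05 by edgeR's quasi-likelihood test with Benjamini-Hochberg adjustment, the rule for every gene described as called, higher or lower. The 2 C_CD8 libraries lay outside the range of all 4 CD11b+ libraries for 2335 of the genes called higher (13.5% of genes tested) and for 2443 of those called lower (14.1%). The calls rest on the same libraries, so these counts are no separate support. How often the subsets did not overlap over all genes tested, called or not, was not counted. Large differences lay more often on the CD11b+ side: 209 genes were at least 8-fold higher in C_CD8 (1.21%) and 487 at least 8-fold lower (2.81%). Without the Esam-lo library of batch C, 2786 genes were higher and 2783 lower. With only 1 C_CD8 library, 1650 were higher without that of batch C and 1654 without that of batch D.

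**Figure D1:**
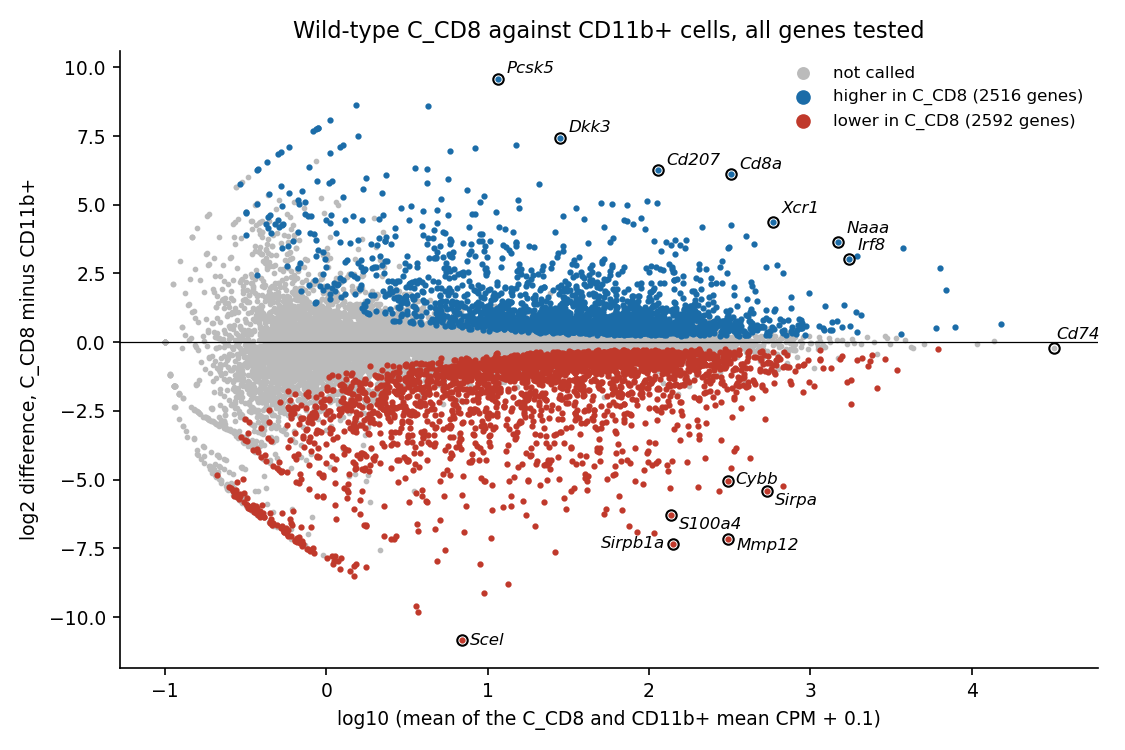
Each point is 1 of the 17341 genes tested, by its mean level (x, log10 CPM) and its log2 difference, C_CD8 minus CD11b+ (y), with called genes in blue (2516 higher) and red (2592 lower). Sirpa, Mmp12 and Cybb sit far below 0 and Xcr1, Cd8a and Cd207 far above it, while Cd74 lies near 0.

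Levels below are CPM of the library's total, given for batch C and then batch D. Differences are log2, C_CD8 minus CD11b+, ± the standard error. Xcr1, the receptor for the chemokine Xcl1 that marks cDC1 (chr9:123852315-123862029 in GRCm38, minus strand), was at 1200.0 and 1045 CPM in C_CD8, 34.4 and 32.1 in Esam-hi and 108 and 70.1 in Esam-lo. Both C_CD8 libraries lay above all 4 others, and the difference was 4.39 ± 0.48 (adjusted p = 3.35e-05). Clec9a, the receptor for exposed actin filaments of dead cells (chr6:129408862-129424763, plus strand), was at 308 and 295 CPM against 14.9 and 15.3 in Esam-hi and 61.3 and 44.4 in Esam-lo, a difference of 3.43 ± 0.23 (adjusted p = 9.47e-07). Its exons overlap those of Clec1b on the same strand, with 4.02% of its 50-base stretches shared. For both genes the Esam-lo libraries were above Esam-hi, by a difference called for Clec9a (-1.81 for Esam-hi minus Esam-lo, adjusted p = 0.00708) and not for Xcr1 (-1.43, adjusted p = 0.212). The call for Clec9a between the fractions was lost without either Esam-hi library (adjusted p between 0.0722 and 0.0815). Sirpa, the inhibitory receptor for CD47 that marks cDC2 (chr2:129592835-129632228, plus strand), was at 17.1 and 31.7 CPM in C_CD8, 1234 and 1099 in Esam-hi and 977 and 926 in Esam-lo, a difference of -5.41 ± 0.24 (adjusted p = 4.11e-08). Itgam (chr7:128062640-128118491, plus strand), which encodes the CD11b of the sort, was at 10.2 and 19.6 CPM in C_CD8, 196 and 159.5 in Esam-hi and 183 and 206 in Esam-lo. An overlapping gene on the same strand, Gm49368, shares 66.3% of its stretches, so the level of Itgam depends on how such reads were counted. These 4 markers followed the labels in all 6 libraries. For the sort gene Esam, Esam-hi minus Esam-lo was 2.77. It was 2.13 without the Esam-lo library of batch C and 4.002 without that of batch D, so the Esam-lo libraries differed in Esam. C_CD8 minus CD11b+ was -1.06 for Esam, and -0.44 without the Esam-lo library of batch D. That difference was not called with only the libraries of the comparison (adjusted p = 0.165) or with all 24 libraries in the fit (0.114). The call was also lost without either C_CD8 library, either Esam-hi library or the Esam-lo library of batch D. The difference was -1.37 without the C_CD8 library of batch C and -0.80 without that of batch D.

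**Figure D2:**
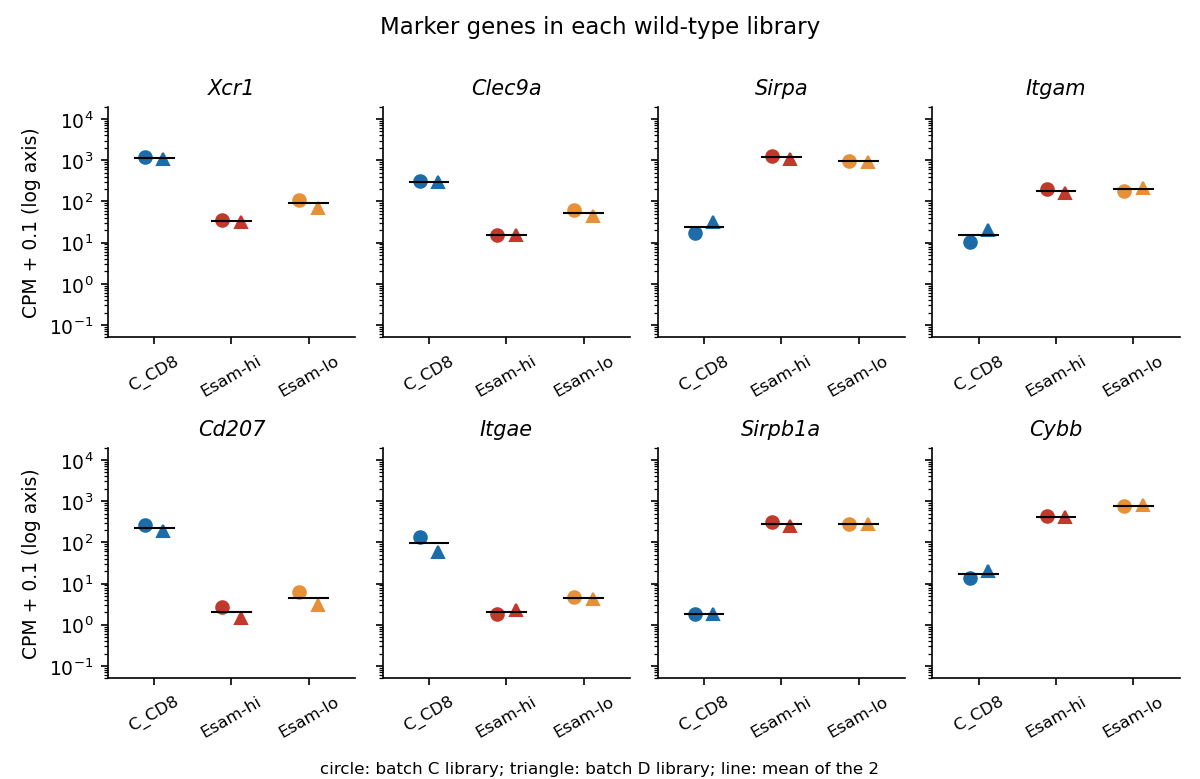
Levels (CPM + 0.1, log axis) of 8 genes in the 2 libraries of each subset, batch C as circles and batch D as triangles, with the mean of the 2 as a line. Xcr1, Clec9a, Cd207 and Itgae are high only in the C_CD8 libraries of these 6, and Sirpa, Itgam, Sirpb1a and Cybb only in the CD11b+ ones.

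Among genes with at least 10 CPM in the higher subset and libraries that did not overlap, the largest fitted difference in favour of C_CD8 was that of Pcsk5, a proprotein convertase. It was at 24.4 and 21.7 CPM in C_CD8, 0 and 0.247 in Esam-hi and 0 and 0 in Esam-lo, that is 947 reads against 4, with a fitted difference of 9.58 ± 0.82 (adjusted p = 1.80e-05). Dkk3, a secreted protein of the dickkopf family, was at 63.2 and 48.3 CPM against 0.0579 and 0.804 in Esam-hi and 0.488 and 0 in Esam-lo (7.43). Ptgis, which makes prostacyclin, was at 30.9 and 27.7 against 0.0579 and 0 in Esam-hi and 1.22 and 1.04 in Esam-lo (7.17). Each of these was read only sparsely in CD11b+ cells. Cd207 (langerin, the lectin of Birbeck granules) was at 260.0 and 188 CPM in C_CD8, 2.55 and 1.36 in Esam-hi and 5.98 and 2.90 in Esam-lo, a difference of 6.26 ± 0.65 (adjusted p = 2.27e-05). Itgae, the CD103 integrin chain that binds E-cadherin, was at 137 and 59.0 CPM in C_CD8 and at most 4.58 in CD11b+ (5.06), with the batch C library above that of batch D. Cd8a, a sort gene, was among these 15 with 6.11. The others were Trabd2b (7.08), Mab21l3 (5.76), Cpne8 (5.31), Igf2r (the mannose 6-phosphate receptor, 5.19), Ttc39a (5.13), Homer2 (5.10), Plpp1 (5.03) and the antisense genes Gm11837 (6.96) and E030013I19Rik (5.55). Leaving out 1 library moved the difference by over 1.5-fold for Pcsk5 (11.66 without Esam-hi, batch D), Dkk3 (8.82 without Esam-hi, batch D, 9.98 without Esam-lo, batch C), Ptgis (8.34 without Esam-hi, batch C) and Itgae (4.35 without C_CD8, batch C). Without 1 library, values moved by over 1.5-fold for Trabd2b (8.94 without Esam-hi, batch C, 7.68 without Esam-lo, batch C), Mab21l3 (6.70 without Esam-lo, batch C), Igf2r (8.32 without Esam-hi, batch C, 5.85 without Esam-lo, batch C), Homer2 (5.76 without Esam-hi, batch D), Gm11837 (9.05 without Esam-hi, batch D) and E030013I19Rik (6.72 without Esam-hi, batch C). The strand setting of the counting is not given in the sources used here, so antisense genes cannot be told apart from partners on the other strand.

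On the CD11b+ side, several of the 15 genes had almost no read in C_CD8. Scel, a protein of the cornified envelope of epithelia, had none in C_CD8 and 21.2 and 13.3 and 8.12 and 11.8 CPM in Esam-hi and Esam-lo, 918 reads in all, so it was at least 187-fold lower in C_CD8 against a floor of 3 reads over the group. Slc44a5, a choline transporter-like gene, had 1 read in C_CD8 against 1263, a ratio of 772 (95% counting interval 138 to 30527). Cd209b, the SIGNR1 lectin, had 2 against 1783, a ratio of 545 (151 to 4505), and the cadherin-related Cdhr3 had 2 against 1197, a ratio of 366 (101 to 3025). These intervals cover counting error only. The fitted differences of Slc44a5 (-9.13) and Cdhr3 (-8.05) rest on the same few reads. Other genes of the set had more reads in C_CD8. Mmp12, macrophage elastase, was at 5.03 and 3.55 CPM in C_CD8, 709.7 and 584 in Esam-hi and 514 and 655 in Esam-lo (-7.15 ± 0.49, adjusted p = 9.50e-07). Ptger3, a receptor for prostaglandin E2, was at 0.329 and 0.152 CPM against 73.8 and 54.3 in Esam-hi and 42.6 and 37.8 in Esam-lo (-7.65). Dscam, an immunoglobulin-family adhesion molecule best known from neurons, was at 1.36 and 1.17 CPM against 197 and 248.6 in Esam-hi and 42.1 and 109.8 in Esam-lo (-6.68). The cytoglobin gene Cygb was at -6.68, the sodium channel gene Scn3a at -6.29, the succinate receptor gene Sucnr1 at -6.91 and Tlr5 at -7.11. Oas2, the remaining gene of the set, is described with the interferon-stimulated genes. With 1 library left out, the difference moved by over 1.5-fold for Slc44a5 (-8.24 without C_CD8, batch C, -11.26 without C_CD8, batch D), Cdhr3 (-7.30 without Esam-lo, batch D), Ptger3 (-8.28 without C_CD8, batch C), Sucnr1 (-10.74 without C_CD8, batch C, -6.01 without C_CD8, batch D), Scn3a (-8.05 without C_CD8, batch C, -5.57 without C_CD8, batch D, -5.51 without Esam-lo, batch D) and Tlr5 (-11.25 without C_CD8, batch C, -6.21 without C_CD8, batch D).

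The Sirpb1 genes, activating relatives of Sirpa that lie together on chromosome 3, filled 3 of these 15 places. Sirpb1a was at 1.74 and 1.67 CPM in C_CD8, 309 and 254 in Esam-hi and 277 and 282 in Esam-lo, a difference of -7.34 ± 0.20 (adjusted p = 1.38e-09). Sirpb1b was at -6.89 and Sirpb1c at -6.96. The 3 genes share 40.4%, 58.0% and 46.1% of their 50-base stretches with other genes, chiefly each other, so the split of reads among them is uncertain. Of the 34 genes set out by marker status or size of difference, 24 had a promoter in the RefSeq set used here, which does not cover every gene. Each promoter runs from 250 bases before to 50 after the gene start (GRCm38.p6). In them 3 motifs were searched on both strands: AP-1 (TGANTCA), ISRE (GAAA, any 2 letters, GAAA) and EICE (GGAA, any 2 letters, GAAA). EICE is the composite element that Irf4 or Irf8 can bind with PU.1. AP-1 letters were in the promoters of 4 genes, ISRE in 2 and EICE in 1. ISRE and EICE share the ending GAAA, so an EICE match can run into an ISRE match, and no AP-1 match overlapped another in the promoters shown. Those of Cd207 and of the 3 Sirpb1 genes are shown because the first is the cDC1 gene with an AP-1 match nearest its start and the others are relatives that moved together. Capitals mark the AP-1 match in Cd207 and the ISRE matches in Sirpb1a and Sirpb1b.
Cd207 (chr6:83677808-83678107, minus strand): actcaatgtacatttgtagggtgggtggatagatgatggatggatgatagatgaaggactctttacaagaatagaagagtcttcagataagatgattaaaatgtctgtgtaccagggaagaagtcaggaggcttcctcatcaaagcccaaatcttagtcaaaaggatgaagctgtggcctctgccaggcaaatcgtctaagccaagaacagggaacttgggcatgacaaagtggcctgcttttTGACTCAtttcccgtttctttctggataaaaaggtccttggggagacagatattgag
Sirpb1a (chr3:15426378-15426677, minus strand): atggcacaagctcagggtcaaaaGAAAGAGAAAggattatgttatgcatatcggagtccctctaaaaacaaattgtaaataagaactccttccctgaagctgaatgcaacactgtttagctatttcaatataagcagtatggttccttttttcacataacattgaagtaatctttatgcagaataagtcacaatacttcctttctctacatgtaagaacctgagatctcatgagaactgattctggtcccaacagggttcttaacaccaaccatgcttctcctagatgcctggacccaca
Sirpb1b (chr3:15575016-15575315, minus strand): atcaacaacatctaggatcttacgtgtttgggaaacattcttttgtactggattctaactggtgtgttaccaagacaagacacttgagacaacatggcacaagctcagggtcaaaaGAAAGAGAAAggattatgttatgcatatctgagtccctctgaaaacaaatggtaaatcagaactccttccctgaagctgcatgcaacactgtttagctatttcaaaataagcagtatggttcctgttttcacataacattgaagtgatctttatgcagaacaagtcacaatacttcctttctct
Sirpb1c (chr3:15848438-15848737, minus strand): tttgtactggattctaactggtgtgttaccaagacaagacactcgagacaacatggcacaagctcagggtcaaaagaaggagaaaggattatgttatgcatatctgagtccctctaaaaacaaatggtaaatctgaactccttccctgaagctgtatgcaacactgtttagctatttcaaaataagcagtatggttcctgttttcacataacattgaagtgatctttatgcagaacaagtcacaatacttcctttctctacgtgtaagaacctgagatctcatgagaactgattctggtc
The Cd207 match, TGACTCA, begins 7 bases before the gene start. The ISRE letters GAAAGAGAAA begin 227 bases before the start in Sirpb1a and 134 before it in Sirpb1b. Sirpb1c holds the same flank but differs within these 10 letters by A4G, counted from 1 at their 5′ end with Sirpb1a first, and so has no ISRE match there. The longest run without a difference was 104 bases between Sirpb1b and Sirpb1c, 52 between Sirpb1a and Sirpb1b and 38 between Sirpb1a and Sirpb1c. These are reference letters, and the mice were hybrids with FVB/N. The genes tested had 13721 promoters of this length in the table, and ISRE letters were in 3.34% of them. They were in 3.99% of the promoters of genes called and at least 2-fold higher in C_CD8 and in 5.82% of those called and at least 2-fold lower (together 2455 genes, 14.2% of those tested, of which 682 higher and 1058 lower genes had a promoter in the table). AP-1 letters were in 5.28% of the promoters of genes tested, 7.18% of the higher and 7.09% of the lower set, and EICE letters in 2.43%, 1.94% and 3.48%. Over all 32851 promoters the shares were 3.44% for ISRE, 7.81% for AP-1 and 2.72% for EICE, so the AP-1 share of both sets lay above that of the genes tested and below that of all promoters. These shares were not tested. A match describes letters only.

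The most precisely measured abundant genes, those with the smallest p among genes of at least 100 CPM, had smaller differences. Higher in C_CD8 were Cadm1 (3.85 ± 0.23), an adhesion molecule, Slco3a1 (2.75 ± 0.16), an organic anion transporter, Btla (2.73 ± 0.16), an inhibitory receptor that binds Hvem, Synrg (1.66 ± 0.10), and Usp22 (1.53 ± 0.09), the deubiquitinase of the SAGA complex. Usp22 was at 295 and 279 CPM in C_CD8, 92.4 and 94.8 in Esam-hi and 109 and 106 in Esam-lo. Lower in C_CD8 were Cybb (-5.05 ± 0.19), Klrd1 (-4.79 ± 0.17), which encodes CD94, the collagen receptor gene Ddr1 (-4.30 ± 0.11), Emb (-4.45 ± 0.15) and Fcer1g (-4.23 ± 0.15). Ddr1 was at 6.91 and 6.74 CPM against 175 and 153 in Esam-hi and 111 and 114 in Esam-lo, with replicates close together in each subset.

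Of 25 genes of a cDC1 list, 24 were higher in C_CD8 and none lower, with a median difference of 3.41, against 0.00 over all genes tested. For this and every list below, the shares to set beside the counts against CD11b+ are 14.5% higher and 14.9% lower. The list holds genes used to define such cells, so its direction was given by the labels, while its sizes are the measurement. Ppt1, a lysosomal thioesterase, was at 7078 and 6444 CPM in C_CD8, 414 and 412 in Esam-hi and 1246 and 749 in Esam-lo (3.41 ± 0.36, adjusted p = 2.41e-05). Naaa, which hydrolyses N-acylethanolamines, was at 3104 and 2353 CPM against 128 and 112 in Esam-hi and 538 and 266 in Esam-lo (3.65). Hepacam2 was at 4.19, Cd36, a scavenger receptor, at 3.46, Cd24a at 2.33 and Wdfy4, needed for cross-presentation, at 1.32. Both Esam-hi libraries lay below both Esam-lo libraries for Ppt1 and Naaa. The exception on the list was Batf3, at 91.8 and 71.8 CPM in C_CD8, 74.1 and 66.0 in Esam-hi and 60.7 and 42.7 in Esam-lo. Its difference was 0.46 ± 0.19 with an adjusted p of 0.0847, and 0.0308 with the batch as a block. Without the Esam-lo library of batch C, 25 of the 25 were higher (Batf3 at an adjusted p of 0.0462), and without the C_CD8 library of batch C 23 were, Sult1a1 (1.93) being the other gene that lost its call (adjusted p = 0.0602).

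Of 24 genes of a cDC2 list, 21 were lower in C_CD8 and 1 was higher, with a median of -3.80. Clec4a4 (DCIR2) was at 0.799 and 1.82 CPM in C_CD8, 143 and 129.9 in Esam-hi and 44.4 and 100.2 in Esam-lo (-6.24 ± 0.44, adjusted p = 1.32e-06), with 15.7% of its stretches shared with Clec4a2. Cd209a was at 12.3 and 9.68 CPM against 340.5 and 232 in Esam-hi and 945 and 610.1 in Esam-lo (-5.40), and Cd4, which marks splenic CD11b+ cells, at 8.89 and 11.7 against 301 and 285 in Esam-hi and 110.4 and 178 in Esam-lo (-4.31). Within CD11b+, Cd209a was lower and Cd4 higher in Esam-hi than in Esam-lo (adjusted p = 0.0300 and 0.0355). Ltb, which encodes lymphotoxin beta, was at -3.36 and Gpr183 (EBI2), the oxysterol receptor that positions these cells in the spleen, at -2.63. The gene that ran the other way was Clec12a, at 209 and 217 CPM in C_CD8, 45.8 and 38.98 in Esam-hi and 252 and 147 in Esam-lo. Esam-hi alone lay below C_CD8 for it (2.35, adjusted p = 4.72e-06), Esam-lo overlapped C_CD8 (0.12, adjusted p = 0.713), and the fractions differed (-2.24, adjusted p = 0.000272). Notch2 was at 303 and 276 CPM in C_CD8, 224 and 246 in Esam-hi and 262 and 292 in Esam-lo and was not called (0.19, adjusted p = 0.377). The difference moved by over 1.5-fold without 1 library for Clec4a4 (-6.95 without C_CD8, batch D) and Gpr183 (-3.37 without C_CD8, batch D). The calls between the fractions for Cd209a and Cd4 were lost without either Esam-hi library and without the Esam-lo library of batch C (adjusted p between 0.0989 and 0.220 for Cd209a and between 0.127 and 0.150 for Cd4), and that for Cd4 also with all 24 libraries in the fit (0.614).

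Of 20 monocyte and macrophage genes, 15 were lower in C_CD8 and 1 (Clec12a again) was higher, with a median of -1.67. S100a4, a calcium-binding protein, was at 2.59 and 4.26 CPM against 251 and 297 in Esam-hi and 232 and 297 in Esam-lo (-6.29), with an overlapping gene sharing 47.4% of its stretches. Adgre1, the gene of F4/80, was at 8.51 and 17.6 CPM against 336 and 309 in Esam-hi and 190.4 and 229.6 in Esam-lo (-4.31). Other members differed mainly through Esam-lo. Lyz2, lysozyme, was at 365 and 506 CPM in C_CD8, 573 and 573 in Esam-hi and 2953 and 2029.6 in Esam-lo, and Ccr2, the receptor for Ccl2, at 56.7 and 48.03, 73.1 and 56.8 and 473 and 253 in the same order. Against Esam-hi alone neither was called (adjusted p = 0.336 and 0.367), against Esam-lo alone both were (-2.50 and -2.78), and the fractions differed for both (adjusted p = 0.00306 and 0.000450). The difference of Lyz2 from CD11b+ as a whole (-1.44) was not called with all 24 libraries in the fit (adjusted p = 0.108), and Lyz1 shares 15.4% of its stretches. Cd14 and Ly6c2 were not called (0.06 and -0.25). Values changed by over 1.5-fold with 1 library left out for Adgre1 (-4.94 without C_CD8, batch D). With all 24 libraries the difference of Lyz2 between the fractions was not called either (adjusted p = 0.335).

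**Figure D3:**
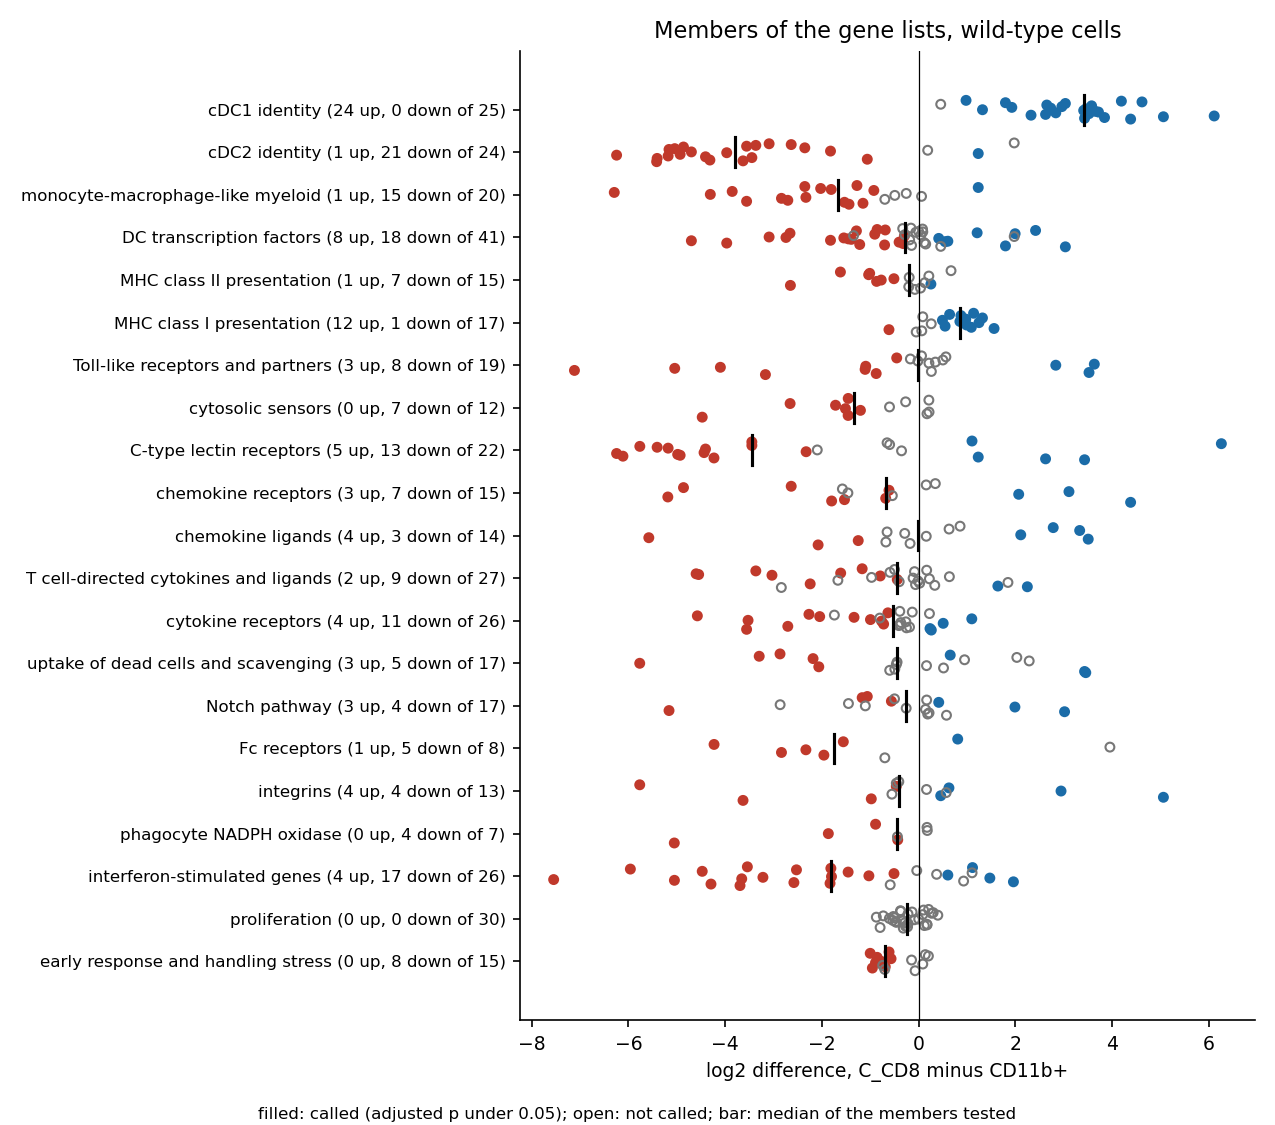
Log2 difference (x, C_CD8 minus CD11b+) of every tested member of 21 gene lists (y), filled where called and open where not, with a bar at each list's median. The cDC1 and MHC class I lists lie mostly to the right, the cDC2, lectin and interferon-stimulated lists mostly to the left, and the proliferation list around 0 with no filled point.

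Among 41 transcription factors, 8 were higher in C_CD8, 18 were lower and the median was -0.28. Over all genes tested, 14.5% were higher and 14.9% lower. Irf8, the factor cDC1 depend on, was at 3508 and 2555 CPM in C_CD8, 215 and 195 in Esam-hi and 970.1 and 400.0 in Esam-lo (3.04 ± 0.34, adjusted p = 4.09e-05). Both C_CD8 libraries lay above all others, and Esam-lo lay above Esam-hi (-1.74, adjusted p = 0.0444). That difference was not called with all 24 libraries in the fit (adjusted p = 0.255), nor without either Esam-hi library or the Esam-lo library of batch C (adjusted p between 0.211 and 0.230), and it was -1.02 without the last of these. Id2, an inhibitor of E proteins, was at 1475 and 1581 CPM against 411 and 499 in Esam-hi and 528 and 340.3 in Esam-lo (1.798). Mycl was at 1.997 and Zfp366 (DC-SCRIPT) at 1.21, the latter not called with all 24 libraries in the fit (adjusted p = 0.116). Irf5 (0.55), Irf7 (0.61), Rbpj (0.42) and the sparsely read Batf2 (2.42) were also higher, but each lost its call without 1 or more libraries. The adjusted p of Irf5 was 0.0560 without the C_CD8 library of batch C, and that of Rbpj was 0.0856 without the C_CD8 library of batch D. That of Irf7 lay between 0.0678 and 0.270 without any 1 of the 6 libraries. That of Batf2 lay between 0.0550 and 0.110 without any 1 library other than the Esam-lo one of batch C, without which it was higher by 3.20.

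On the CD11b+ side, Zeb2 was at 9.07 and 9.63 CPM in C_CD8, 193 and 181 in Esam-hi and 274 and 362 in Esam-lo (-4.70 ± 0.18, adjusted p = 1.15e-08). Irf4 was at 5.59 and 16.4 CPM in C_CD8, 213 and 304 in Esam-hi and 85.8 and 144 in Esam-lo (-3.97 ± 0.47), with the C_CD8 library of batch D above that of batch C. Klf4 was at 40.2 and 82.0 CPM against 194 and 205 in Esam-hi and 196 and 278 in Esam-lo (-1.82). For Zeb2, Irf4 and Klf4 both C_CD8 libraries lay below every CD11b+ library. Spib (-2.74), Cebpb (-2.66), Tbx21 (-3.09), Tcf4 (-1.54), Relb (-1.39), Bcl11a (-1.22) and the Ikaros gene Ikzf1 (-0.91) were lower in C_CD8 too. Relb, an NF-kappaB subunit needed for CD11b+ cells, was higher in Esam-hi than in Esam-lo (0.96, adjusted p = 0.0264), and Cebpb was lower (-1.36, adjusted p = 0.00761). Zbtb46, which marks conventional dendritic cells of both lineages, was at 313 and 235 CPM in C_CD8, 328 and 276 in Esam-hi and 213 and 199.6 in Esam-lo and was not called (0.15, adjusted p = 0.398). Runx3 was at -1.34 with an adjusted p of 0.0623, and 0.000212 with the batch as a block. It was also called without the C_CD8 library of batch D (-2.06, adjusted p = 0.0452) and without the Esam-lo library of batch C (-1.63, 0.0177). Leaving out 1 library moved the difference by over 1.5-fold for Irf4 (-3.37 without C_CD8, batch C, -4.96 without C_CD8, batch D), Klf4 (-2.44 without C_CD8, batch D), Tbx21 (-2.42 without C_CD8, batch C, -4.33 without C_CD8, batch D) and Spib (-3.40 without C_CD8, batch D). The fractions' difference in Relb lost its call without either Esam-hi library or the Esam-lo library of batch C (adjusted p between 0.0881 and 0.132) and that in Cebpb without either Esam-hi library (between 0.0594 and 0.0871). With all 24 libraries neither was called (adjusted p = 0.205 and 0.0738).

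**Figure D4:**
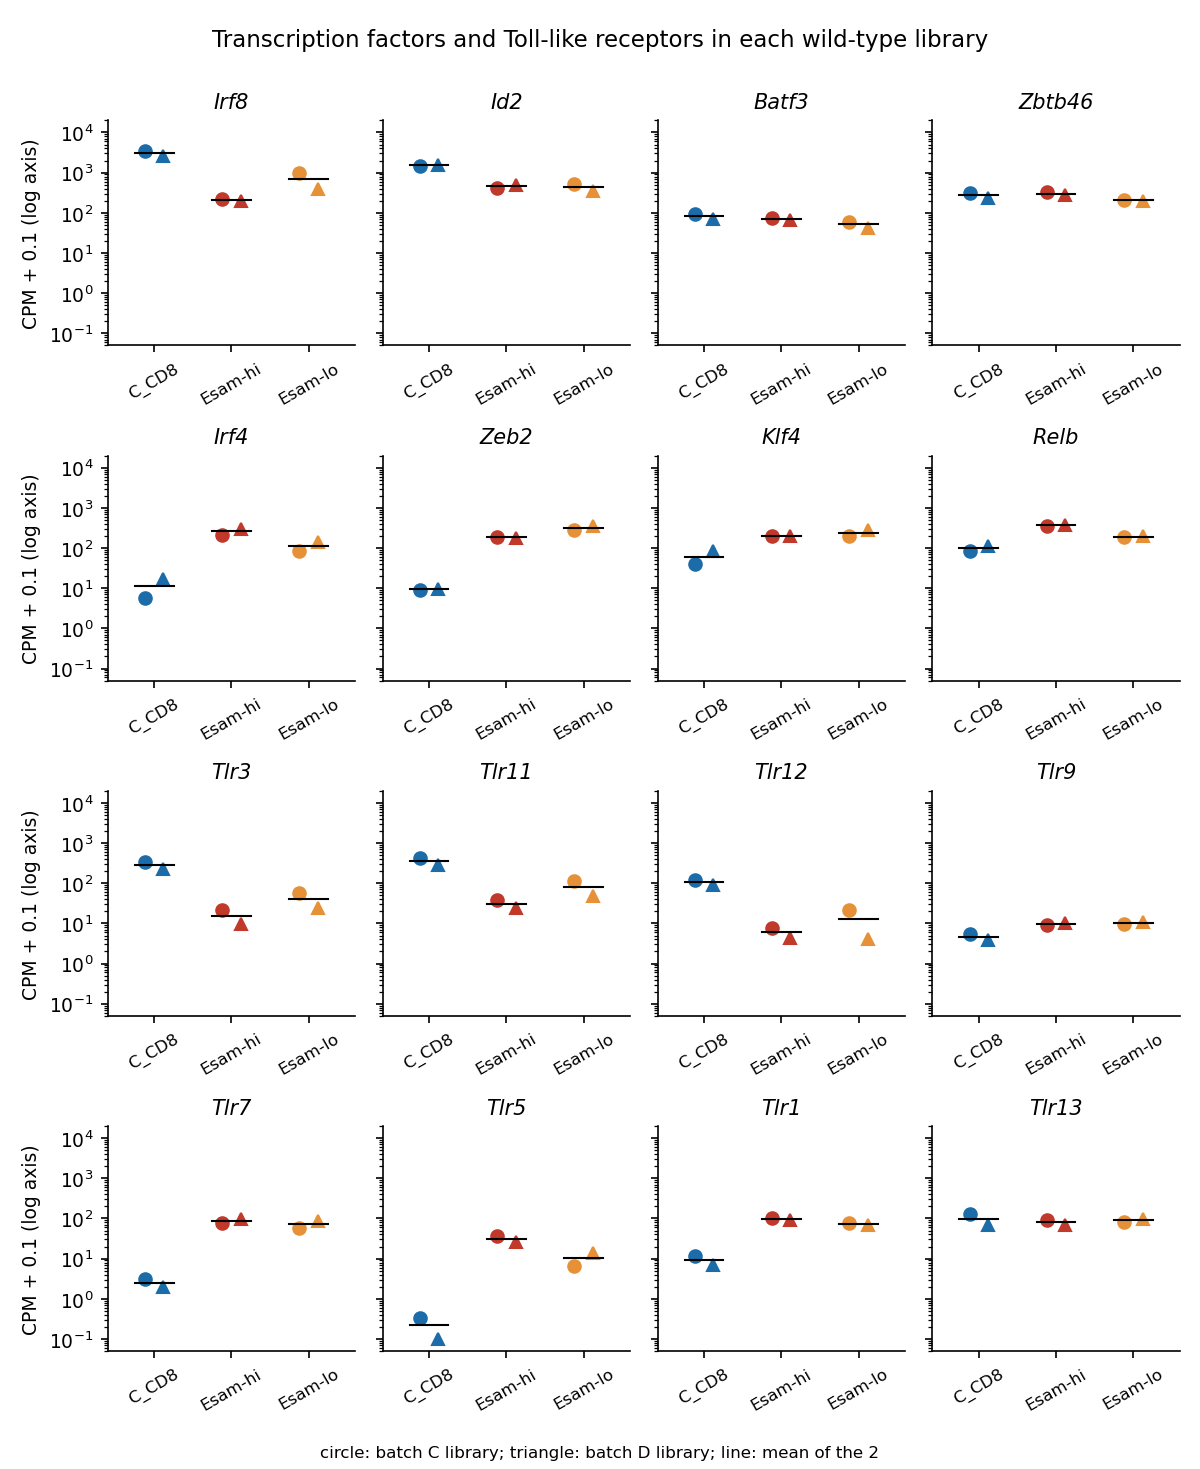
Levels (CPM + 0.1, log axis) of 8 transcription factors and 8 Toll-like receptors in the 2 libraries of each subset, batch C as circles, batch D as triangles and the mean as a line. Irf8, Id2, Tlr3, Tlr11 and Tlr12 are highest in C_CD8, Irf4, Zeb2, Tlr5, Tlr7 and Tlr1 lowest there, and the libraries of Batf3, Zbtb46 and Tlr13 overlap between subsets.

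Pattern receptors split by family member. Of 19 Toll-like receptors and partners, 3 were higher in C_CD8 and 8 lower, with a median of -0.01. The shares over all genes tested were 14.5% and 14.9%. Tlr3, the endosomal receptor for double-stranded RNA, was at 341 and 229 CPM in C_CD8, 21.1 and 9.71 in Esam-hi and 58.4 and 23.95 in Esam-lo (3.53 ± 0.55, adjusted p = 0.000493). Tlr11 and Tlr12, which together sense profilin of apicomplexan parasites, were higher by 2.84 and 3.63. Tlr11 was at 418 and 284 CPM in C_CD8, 38.1 and 24.01 in Esam-hi and 112 and 48.4 in Esam-lo. For Tlr3, Tlr11 and Tlr12 the batch C libraries were above those of batch D within each subset. Tlr7, the receptor for single-stranded RNA, was at 2.96 and 1.82 CPM in C_CD8, 77.4 and 97.6 in Esam-hi and 59.5 and 85.1 in Esam-lo (-5.04 ± 0.31, adjusted p = 4.46e-07), and its relative Tlr8 was at -4.10. Tlr5, the flagellin receptor, had 5 reads in C_CD8 against 1395 in CD11b+ (-7.11). Tlr1 was at 11.7 and 6.99 CPM against 105 and 93.2 in Esam-hi and 76.8 and 67.3 in Esam-lo (-3.17), and Tlr2 (-0.88), Tlr6 (-1.10) and Tlr9 (-1.09) were lower by less. Tlr1 and Tlr6 share 15.4% and 12.3% of their stretches, mainly with each other, and Tlr6 lost its call without the C_CD8 library of batch D (adjusted p = 0.185) and without the Esam-hi library of batch C (0.0532). Tlr4, Tlr13 and the adaptor Myd88 were not called (0.27, 0.22 and -0.01). Without 1 library, values moved by over 1.5-fold for Tlr12 (4.41 without Esam-lo, batch C).

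Of 12 cytosolic sensors tested, 7 were lower in C_CD8 and none higher (0 higher also at an unadjusted p under 0.05 and by DESeq2), with a median of -1.33. Ddx58, the gene of the RNA sensor RIG-I, was at 1.03 and 2.69 CPM in C_CD8, 57.5 and 49.4 in Esam-hi and 27.9 and 36.5 in Esam-lo (-4.47 ± 0.39, adjusted p = 6.53e-06). Ifih1, the gene of MDA5, was at -1.46, Tmem173, the gene of STING, at -1.20, and Nod1 at -1.51. The inflammasome genes Nlrc4 (-2.66), Nlrp3 (-1.72) and Casp1 (-1.45) were lower as well. Nlrc4 was at 4.89 and 6.28 CPM against 49.5 and 40.4 in Esam-hi and 25.1 and 30.97 in Esam-lo. Mavs, which carries the signal of both RNA sensors, and the inflammasome adaptor gene Pycard were not called (0.22 and 0.21). With 1 library left out, the difference moved by over 1.5-fold for Ddx58 (-5.32 without C_CD8, batch D).

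Of 22 C-type lectin receptors, 5 were higher in C_CD8 and 13 lower, with a median of -3.45. Higher were Cd207, Clec9a, Ly75 (DEC-205, 2.63), Clec12a and Clec1b (1.11), which overlaps Clec9a by an exon on the same strand. The lower ones included Clec4n (Dectin-2, -2.32), 3 Cd209 genes and 4 Clec4a genes. Clec7a (Dectin-1, the beta-glucan receptor) was at 13.7 and 70.4 CPM in C_CD8, 413 and 886 in Esam-hi and 706 and 1229 in Esam-lo (-4.23 ± 0.74), higher in batch D in every subset. Clec4a1 was at 1.55 and 2.23 CPM against 112 and 100.1 in Esam-hi and 150.2 and 178 in Esam-lo (-6.11), and Clec4a3 at 2.02 and 3.29 against 47.05 and 36.8 in Esam-hi and 194 and 149 in Esam-lo (-4.98). Clec10a (-4.40) and Mgl2 (-5.18), the galactose-type lectins, were lower than both fractions and lower in Esam-hi than in Esam-lo (-3.20 and -3.10, adjusted p = 0.00142 and 0.00136). They share 9.02% and 13.1% of their stretches, mainly with each other. Across this list, 9 of 22 members were lower in Esam-hi than in Esam-lo, where 2.34% of all genes tested were lower, and none was higher (edgeR), where 1.07% were. At an unadjusted p under 0.05, 1 was higher and 13 were lower, and DESeq2 called 0 and 11. The count of lower members was 5 with only the libraries of the comparison in the fit, 5 without the Esam-hi library of batch C and 4 without that of batch D. The difference of Clec10a between the fractions was -2.51 without the Esam-lo library of batch C. The difference moved by over 1.5-fold without 1 library for Clec4n (-1.71 without C_CD8, batch C, -3.36 without C_CD8, batch D) and Clec7a (-3.48 without C_CD8, batch C, -5.86 without C_CD8, batch D).

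Several other parts of the phagocyte equipment were lower in C_CD8. Of 8 Fc receptors, 5 were lower and 1 higher, with a median of -1.76. Fcer1g, the signalling chain shared by activating Fc receptors and several lectins, was at 20.2 and 23.7 CPM in C_CD8, 332 and 337 in Esam-hi and 463 and 562 in Esam-lo (-4.23, adjusted p = 5.89e-09). Fcgr3 was at -2.83, Fcgr4 at -2.33 and the inhibitory Fcgr2b at -1.96, while the neonatal Fc receptor gene Fcgrt was higher at 0.81. Of 7 NADPH oxidase genes 4 were lower and none higher, with a median of -0.44. Cybb, the catalytic chain gp91phox, was at 13.7 and 20.4 CPM in C_CD8, 435 and 402 in Esam-hi and 753 and 802 in Esam-lo (adjusted p = 1.08e-08). Cyba, which encodes the partner chain p22phox, was at -0.43 and lost its call without the C_CD8 library of batch C (adjusted p = 0.0836) or D (0.107) and without the Esam-hi library of batch D (0.0501). Ncf4 was not called (0.18).

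Of 13 integrins, 4 were higher and 4 lower, with a median of -0.41. Itga6 was at 10.4 and 15.5 CPM in C_CD8, 0.810 and 1.67 in Esam-hi and 1.04 and 3.48 in Esam-lo (2.95), and Itgb1 at 0.63. Itgb3, the beta-3 chain, was at 1.03 and 0.0507 CPM against 39.8 and 43.4 in Esam-hi and 20.7 and 24.9 in Esam-lo (-5.76). Itgax, which encodes the CD11c that all of these cells carry, was lower in C_CD8 at 410.0 and 348 CPM against 846 and 853 in Esam-hi and 699.6 and 634 in Esam-lo (-0.98 ± 0.09, adjusted p = 1.17e-05), and so was Ptprc, the gene of CD45, at 972 and 983 against 2831 and 2607 in Esam-hi and 2169.5 and 2724 in Esam-lo (-1.39). Of 17 genes tested for recognition or uptake of dead cells and scavenging, 3 were higher and 5 lower, with a median of -0.44. The shares over all genes tested were 14.5% and 14.9%. Besides Cd36 and Clec9a, Scarb1 was higher (0.66), a call lost without the C_CD8 library of batch C (adjusted p = 0.136) and without the Esam-hi library of batch D (0.0535). Cd36 was at 596 and 517 CPM in C_CD8, 30.9 and 15.2 in Esam-hi and 136 and 93.0 in Esam-lo. Lrp1, a large endocytic receptor, was at 8.37 and 12.4 CPM against 60.5 and 67.3 in Esam-hi and 161 and 169.8 in Esam-lo (-3.29), and Cd93 was at -2.86. Values changed by over 1.5-fold with 1 library left out for Itga6 (3.55 without Esam-lo, batch D) and Itgb3 (-9.03 without C_CD8, batch C, -4.89 without C_CD8, batch D).

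Most of the machinery of MHC class I presentation was higher in C_CD8, and the heavy chains H2-K1 and H2-D1 were not called. Of 17 genes, 12 were higher and 1 lower, with a median of 0.86. Tap1, a chain of the peptide transporter, was at 637 and 566 CPM in C_CD8, 208 and 169 in Esam-hi and 267 and 184 in Esam-lo (1.56 ± 0.14, adjusted p = 6.84e-06), and Tap2 was at 1.09. Psmb9, an immunoproteasome subunit, was at 1.32 and Psmb8 at 0.98. In the peptide-loading complex, Pdia3 was at 1123 and 1004 CPM against 412 and 396 in Esam-hi and 549 and 460.3 in Esam-lo (1.25 ± 0.08), Calr at 0.86 and Canx at 0.49. Nlrc5, the class I transactivator, was at 1.14. H2-K1 was at 1995 and 2053 CPM in C_CD8, 2126 and 2271 in Esam-hi and 2105 and 1949.7 in Esam-lo (-0.05, adjusted p = 0.818), and H2-D1 was at 0.07 (adjusted p = 0.652). The lower gene was B2m, the light chain, at -0.61 (adjusted p = 0.0106), a call lost without the C_CD8 library of batch C (-0.53). It was also not called with only the libraries of the comparison (adjusted p = 0.0640) or with all 24 libraries in the fit (0.0931).

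For MHC class II the main peptide-binding chains were not called, and several partners were. Of 15 genes, 1 was higher and 7 lower, with a median of -0.20. H2-Aa was at 10444 and 10571 CPM in C_CD8, 10179 and 10944 in Esam-hi and 11553 and 11992 in Esam-lo (-0.07 ± 0.08, adjusted p = 0.507). H2-Ab1 was at 0.04 ± 0.08, H2-Eb1 at -0.20 ± 0.09, the invariant chain gene Cd74 at -0.19 ± 0.08 and the class II transactivator gene Ciita at 0.21 ± 0.13, none of them called. Calls appeared for H2-Eb1 without the Esam-hi library of batch C (-0.27, adjusted p = 0.0426), for Cd74 without the Esam-lo library of batch C (-0.26, 0.00931) and for Ciita without the C_CD8 library of batch D (0.43, 0.0441). H2-Oa and H2-Ob, which encode the DO dimer that restrains peptide exchange by DM, were lower, at -0.77 and -0.51. H2-Ob was at 469 and 425 CPM in C_CD8, 803 and 753 in Esam-hi and 527 and 531 in Esam-lo, and it was higher in Esam-hi than in Esam-lo (0.54, adjusted p = 0.0134). H2-DMb2 was at -0.87 while H2-DMb1, with which it shares 24.8% of its stretches, was not called (0.13), except without the Esam-lo library of batch C (adjusted p = 0.0489). H2-Eb2, the little-used second beta chain, was at 8.60 and 14.2 CPM against 101 and 131 in Esam-hi and 25.8 and 62.3 in Esam-lo (-2.65). The endosomal proteases and reductase Ctss (-1.03), Lgmn (-1.62) and Ifi30 (-1.01) were lower, Ctss at 537 and 505 CPM against 908 and 932 in Esam-hi and 1224 and 1279.9 in Esam-lo. H2-DMa was higher by 0.26, a call lost without any 1 library other than the Esam-lo one of batch C, with adjusted p between 0.0786 and 0.195.

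Of 15 chemokine and related receptors tested, 3 were higher and 7 lower, with a median of -0.68. Over all genes tested, 14.5% were higher and 14.9% lower. Besides Xcr1, Cxcr3 was at 79.4 and 49.95 CPM in C_CD8, 4.75 and 3.65 in Esam-hi and 19.96 and 7.48 in Esam-lo (3.11 ± 0.43, adjusted p = 0.000205), and Ccr9 was at 2.07. Ccr6, the receptor for Ccl20, was at 0.282 and 1.72 CPM against 59.8 and 62.2 in Esam-hi and 14.3 and 28.8 in Esam-lo (-5.18), and the fractalkine receptor gene Cx3cr1 was at 2.26 and 1.42 against 22.1 and 19.5 in Esam-hi and 187 and 98.5 in Esam-lo (-4.86). Ccr7, which guides migration to T cell areas, was at 341 and 939 CPM in C_CD8, 824 and 2088 in Esam-hi and 352 and 841 in Esam-lo, with batch D above batch C in every subset. It was not called (-0.54, adjusted p = 0.576), but was called at -0.56 with the batch as a block (adjusted p = 0.00156). Of 14 chemokine ligands, 4 were higher and 3 lower, with a median of -0.01. Cxcl9, a ligand of Cxcr3, was at 211 and 219 CPM in C_CD8, 12.3 and 15.4 in Esam-hi and 33.1 and 33.9 in Esam-lo (3.33, adjusted p = 5.84e-05), and Cxcl11 was at 2.79 from low levels. Ccl22 was at 2.11, with an adjusted p of 0.0584 without the C_CD8 library of batch D, and Ccl7 at 3.51. Ccl9 was at 1.65 and 2.43 CPM against 45.4 and 46.8 in Esam-hi and 279.5 and 143 in Esam-lo (-5.58), and Ccl3 at -2.08. Leaving out 1 library moved the difference by over 1.5-fold for Ccr6 (-4.37 without C_CD8, batch C, -6.98 without C_CD8, batch D), Ccl7 (4.15 without C_CD8, batch C, 2.35 without C_CD8, batch D) and Ccl22 (2.82 without Esam-hi, batch D).

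Of 27 cytokines and ligands directed at T cells, 2 were higher and 9 lower, with a median of -0.44. Il12b, the p40 chain of IL-12, was at 94.8 and 372 CPM in C_CD8, 44.6 and 102 in Esam-hi and 20.9 and 44.9 in Esam-lo. The C_CD8 library of batch C lay below the Esam-hi library of batch D, and the difference of 2.25 (adjusted p = 0.0169) was not called without the C_CD8 library of batch D (adjusted p = 0.397) or without the Esam-hi library of batch C (0.0586). Il15 was at 36.4 and 34.8 CPM against 10.8 and 9.59 in Esam-hi and 14.8 and 11.3 in Esam-lo (1.64). The ligands of PD-1 were lower: Cd274 (PD-L1) was at 29.6 and 44.2 CPM in C_CD8, 341 and 434 in Esam-hi and 149.7 and 322 in Esam-lo (-3.03 ± 0.35, adjusted p = 4.65e-05), and Pdcd1lg2 (PD-L2) at 0.987 and 1.42 against 42.6 and 33.7 in Esam-hi and 17.6 and 24.6 in Esam-lo (-4.55). Il1b was at 355 and 879.6 CPM against 2541 and 3014 in Esam-hi and 2897 and 3358 in Esam-lo (-2.24). Tnfsf9 (4-1BB ligand) was at -1.61 and Icosl at -0.79, the latter not called with all 24 libraries in the fit (adjusted p = 0.0569). Cd40 and Tnf were not called (-0.11 and 0.22), nor were Cd80 and Cd86 (-0.97 and 0.64), which were called in these directions with the batch as a block (adjusted p = 0.00671 and 0.00922). Cd80 was also called without the Esam-lo library of batch C (adjusted p = 0.0402), and Cd86 without that of batch D (0.00792). Without 1 library, values moved by over 1.5-fold for Il12b (2.93 without C_CD8, batch C, 0.93 without C_CD8, batch D) and Il1b (-3.06 without C_CD8, batch D).

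Of 26 cytokine receptors, 4 were higher and 11 lower, with a median of -0.52. Il2rg, the common gamma chain, was at 24.7 and 40.6 CPM in C_CD8, 365 and 391 in Esam-hi and 318 and 439.8 in Esam-lo (-3.52, adjusted p = 2.72e-06), with 27.5% of its stretches shared with an overlapping gene. Csf1r was at -3.56, Il6ra at -1.33, and the decoy receptor gene Il1r2 at 9.12 and 41.9 CPM against 459 and 1031 in Esam-hi and 165 and 821 in Esam-lo (-4.57), higher in batch D in every subset and not called with all 24 libraries in the fit (adjusted p = 0.0548). Flt3, the receptor these cells depend on, was at 595 and 554 CPM in C_CD8, 441 and 431 in Esam-hi and 536 and 532 in Esam-lo. Its difference was 0.26 (adjusted p = 0.0292), and it was not called without any 1 of the 4 C_CD8 and Esam-hi libraries (adjusted p between 0.0508 and 0.181). Of 17 Notch pathway genes, 3 were higher and 4 lower (14.5% and 14.9% over all genes tested), with a median of -0.26. Dtx1, a Notch target, was at 5.31 and 2.58 CPM in C_CD8, 271 and 306 in Esam-hi and 39.6 and 99.7 in Esam-lo (-5.16 ± 0.47, adjusted p = 9.14e-06), and the fractions differed (2.02, adjusted p = 0.0229). Notch4 ran the other way, at 92.0 and 93.5 CPM against 9.66 and 10.4 in Esam-hi and 19.5 and 7.42 in Esam-lo (3.02), as did Dtx4 (1.99). Adam10, a protease that cleaves Notch receptors, was at -0.56. With 1 library left out, the difference moved by over 1.5-fold for Il1r2 (-3.85 without C_CD8, batch C, -6.08 without C_CD8, batch D, -3.73 without Esam-lo, batch D) and Dtx1 (-5.75 without C_CD8, batch C). For Dtx1 the call between the fractions was lost without either Esam-hi library or the Esam-lo library of batch C (adjusted p between 0.0744 and 0.116), and the difference was 2.91 without the Esam-lo library of batch D.

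Of 26 interferon-stimulated genes, 17 were lower in C_CD8 and 4 higher, with a median of -1.81. Oas2 had 2 reads in C_CD8 against 714, a ratio of 218 (60.2 to 1806), with a fitted difference of -7.54 that rests on those reads. Rtp4 was at 0.141 and 0.304 CPM in C_CD8, 15.7 and 13.6 in Esam-hi and 9.71 and 17.7 in Esam-lo (-5.96 ± 0.53, adjusted p = 7.62e-06), and Ifitm3, an antiviral membrane protein, at 23.5 and 24.1 against 198 and 236 in Esam-hi and 322 and 390.4 in Esam-lo (-3.54). Ifit3 was at -4.29 and Oas1a at -5.05, sharing 51.2% and 57.6% of their stretches with paralogs. Members on the list did not move as one. Mx1 was at 81.5 and 74.5 CPM against 19.3 and 13.9 in Esam-hi and 33.5 and 16.4 in Esam-lo (1.96) and Trim30a at 1.12. The difference moved by over 1.5-fold without 1 library for Oas2 (-10.48 without C_CD8, batch C, -6.70 without C_CD8, batch D) and Rtp4 (-6.59 without C_CD8, batch D).

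Of 30 proliferation genes none was called in either direction by edgeR's quasi-likelihood test, with a median of -0.25. At an unadjusted p under 0.05, 1 was higher and 5 were lower, and DESeq2 called 0 higher and 3 lower. Mki67 was at 70.5 and 59.0 CPM in C_CD8, 70.7 and 113 in Esam-hi and 69.4 and 73.5 in Esam-lo. With the batch as a block 4 of the 30 were lower in C_CD8, without the Esam-hi library of batch C 3 were lower, and without the Esam-lo library of batch C 2 were higher. With all 24 libraries in the fit the median was 0.20. Against Esam-hi alone, 5 of the 30 were lower in C_CD8 and none higher (median -0.51), where 14.2% of all genes tested were lower. At an unadjusted p under 0.05, 0 were higher and 9 lower there, and DESeq2 called 0 and 8. None was called against Esam-hi with all 24 libraries in the fit, without the C_CD8 library of batch C or without the Esam-hi library of batch D, 3 were lower with only the libraries of the comparison and 3 without the C_CD8 library of batch D. Against Esam-lo alone none was called by edgeR (median 0.0045), with 1 higher and 0 lower at an unadjusted p under 0.05 and by DESeq2. Between the fractions none was called by edgeR or DESeq2, and 5 were higher in Esam-hi and 0 lower at an unadjusted p under 0.05. Of 15 early-response and handling genes, 8 were lower and none higher, with a median of -0.69. Zfp36 was at 1883 and 2675 CPM against 4775 and 4049 in Esam-hi and 4791 and 4829 in Esam-lo (-0.999) and Ier2 at -0.77. The heat-shock gene Hspa1a followed the batch, at 3585 and 1176 CPM in C_CD8, 3126 and 953 in Esam-hi and 3482 and 883 in Esam-lo, and was not called (0.20). It shares 60.3% of its stretches with Hspa1b and Hspa1l, so the split of reads among them is uncertain. Transcripts of this list can respond to handling during isolation, and their part in the results above was not tested.

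Marker genes of other cells were also counted. B cell genes summed to 82.8 and 91.3 CPM in C_CD8 and to 219 to 399 in CD11b+, with 5 of 10 lower in C_CD8 and 1 higher. Most of the sum in CD11b+ was Cd22 (23.4 and 29.99 CPM in C_CD8, 273 and 236 in Esam-hi and 142 and 142 in Esam-lo), while Pax5 was at most 1.04 CPM. Of 12 plasmacytoid markers 4 were lower and 1 higher, with sums of 172 and 171 CPM in C_CD8 and 210 to 333 in CD11b+, and Siglech was at most 28.2 CPM. Of 10 natural killer cell genes 3 were lower and 1 higher, and Ncr1 was at most 12.6 CPM. They summed to 129 and 142 CPM in C_CD8, 46.0 to 79.5 in Esam-hi and 160 to 244 in Esam-lo. Between the fractions 2 of the 10 were lower in Esam-hi, where 2.34% of all genes tested were, and none was higher. Of 6 plasma cell genes 1 was lower (Prdm1, -3.34) and 1 higher (Xbp1, 0.38). The call of Xbp1 was lost without either C_CD8 library and without the Esam-hi library of batch C (adjusted p between 0.0753 and 0.162). Of 3 stromal markers tested 1 was lower in C_CD8, and of 4 sex-linked genes 1 was lower. Their part in the results was not tested.

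Each CD11b+ fraction was then compared with C_CD8 alone. Both comparisons use the same C_CD8 libraries, so they are not independent. Against Esam-hi, 2477 genes were higher (14.3%) and 2467 lower (14.2%). Against Esam-lo, 1598 were higher (9.22%) and 2020 lower (11.6%). The cDC1 list had a median difference of 4.05 against Esam-hi and 2.53 against Esam-lo, and 24 of its 25 genes were higher in each. The cDC2 list had medians of -3.59 and -3.97, and the monocyte and macrophage list -1.11 and -2.52. Between Esam-hi and Esam-lo themselves, 186 genes were higher in Esam-hi (1.07%) and 405 lower (2.34%). With the batch as a block, 533 were higher and 777 lower. Single libraries moved several of these counts by over 1.5-fold. Against Esam-hi, 1535 genes were higher without its library of batch C. Against Esam-lo, 980 were higher without the C_CD8 library of batch C and 1020 without that of batch D, and 981 were higher and 1303 lower without the Esam-lo library of batch D. Between the fractions, 32 were higher and 86 lower without the Esam-hi library of batch C, 29 and 60 without that of batch D, 93 and 189 without the Esam-lo library of batch C, and 313 were higher without that of batch D.

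The 5 genes in each direction with the widest gap between the fractions, among those also called between C_CD8 and CD11b+, fell into several orders. Ace, angiotensin-converting enzyme, was at 3.53 and 3.75 CPM in C_CD8, 19.04 and 13.2 in Esam-hi and 189 and 161 in Esam-lo, so each subset stood apart from the others (-2.12 and -5.58 against the fractions, -3.46 between them, adjusted p = 2.46e-05). S1pr5 (0.376 and 0 CPM in C_CD8, 2.49 and 0.247 in Esam-hi and 25.1 and 26.6 in Esam-lo), Lilra5 and Klra2 were high in Esam-lo and low elsewhere, with -4.26, -3.79 and -3.56 for Esam-hi minus Esam-lo. Without the Esam-hi library of batch C that difference was -6.65 for S1pr5 and -5.13 for Lilra5, and without that of batch D it was -3.40 and -3.10. Dkk2 and Cdcp1 were high in Esam-hi and low elsewhere. Dkk2 was at 0.141 and 0.203 CPM in C_CD8, 9.20 and 13.8 in Esam-hi and 0.183 and 0.638 in Esam-lo, and Cdcp1 at 1.504 and 3.60 in C_CD8, 22.4 and 23.9 in Esam-hi and 2.01 and 4.93 in Esam-lo. Cacnb3, a calcium channel subunit, and the kinase gene Src were lowest in Esam-lo. Cacnb3 was at 93.7 and 164 CPM in C_CD8, 56.7 and 76.8 in Esam-hi and 13.8 and 13.1 in Esam-lo, with 0.97 against Esam-hi (adjusted p = 0.108) and 3.27 against Esam-lo (adjusted p = 0.000356). Flt1, a receptor for VEGF, was at 30.1 and 21.7 CPM against 0.174 and 0.866 in Esam-hi and 3.85 and 6.32 in Esam-lo, lowest in Esam-hi. Differences between the fractions depended on the fit: with all 24 libraries in the fit 24 genes were higher and 95 lower, and none of these 10 genes, Esam included, was called there. Leaving out 1 of the 4 CD11b+ libraries ended the call between the fractions for Dkk2, Src, Cdcp1, Cacnb3, S1pr5, Lilra5, Klra2 and Flt1 (adjusted p between 0.0514 and 0.271). The difference from CD11b+ as a whole was not called for Dkk2 without either C_CD8 library or the Esam-lo library of batch D (adjusted p between 0.0746 and 0.131), nor for Cdcp1 without the C_CD8 library of batch C (0.143) or the Esam-lo library of batch D (0.0502).

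The same subsets of Flt3 ITD/+ mice, in other libraries of the same batches, gave 2207 genes higher in C_CD8 (12.7%) and 2072 lower (11.9%). Without the ITD/+ C_CD8 library of batch C these were 1243 and 1194, and without that of batch D 1367 and 1316. Of the 2516 genes higher in wild-type C_CD8, 2490 (99.0%) had the same sign and 1823 (72.5%) were called the same way. Of the 2592 lower, 2543 (98.1%) had the same sign, 1753 (67.6%) were called the same way and 1 was called the opposite way. The share with the same sign in both genotypes over all genes tested was not counted. Over the 17341 genes, the log2 differences of the genotypes had a Pearson correlation of 0.708, a description across genes that share a fit, batches and library type. Tests of the change in difference between the genotypes called no gene with edgeR (0.0%, smallest adjusted p = 0.485), with 669 genes (3.86%) at an unadjusted p under 0.05. DESeq2 called 14 higher and 2 lower. The cDC1 list had 24 of 25 genes higher and a median of 3.50 in ITD/+, and the cDC2 list 21 of 24 lower and a median of -3.57. Xcr1 differed by 4.33 and Irf8 by 3.31 in ITD/+, against 4.39 and 3.04 in wild type. A wild-type C_CD8 library of batch B, left out of the comparison, lay outside the range of the 4 CD11b+ libraries on the called side for 2088 (83.0%) of the genes called higher and 2271 (87.6%) of those called lower. In that library Xcr1 was at 629 CPM, Irf8 at 1765 and Batf3 at 90.6. The series has no CD11b+ library of batch B, so batch and subset cannot be told apart for it. How often it lay outside this range over all genes tested was not counted.

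**Figure D5:**
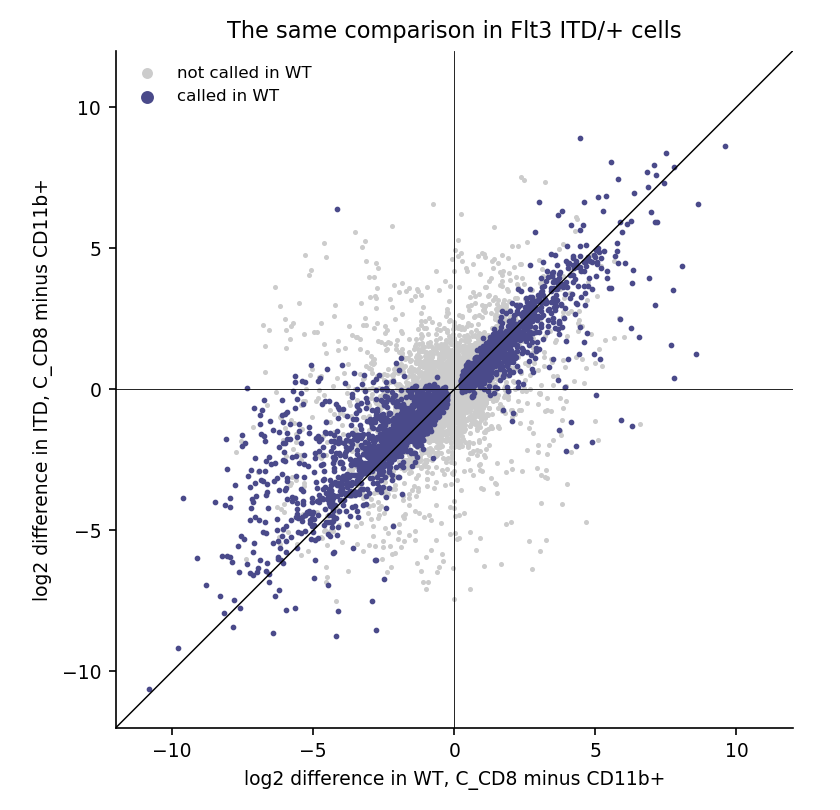
Log2 difference of C_CD8 minus CD11b+ in Flt3 +/+ (x) and Flt3 ITD/+ cells (y) for the 17341 genes tested, with genes called in wild type in dark and the line of equal difference. The dark points scatter about the line, and 98.1% to 99.0% of them have the same sign in both genotypes. That share was not counted over all genes tested.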

How the data were processed

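Bulk RNA was measured in sorted splenic dendritic cells. The values are raw counts per gene as deposited by the authors. Reads were processed with bcl2fastq 1.8.4, Bowtie2 and DESeq2 1.8.2 on build mm10, per the submitters' processing notes. The counting program, its annotation and its strand setting were not given in the sources used here, and reads shared by similar genes may have been split or dropped. Counts without a gene symbol were 0.561% of the total. The deposited normalised table was not used.

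Of 39017 genes, 17341 passed edgeR's filterByExpr with a minimum count of 10. TMM factors, glmQLFit and glmQLFTest (edgeR 4.0.16, limma 3.58.1, R 4.3.3) were run on the 16 libraries of batches C and D as 8 group means with 8 residual degrees of freedom and Benjamini-Hochberg adjustment at 0.05. The common biological coefficient of variation was 0.223. CPM are counts scaled by a library's total, and their number limits the precision of low values.

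Batch letters in the labels mark the independent experiment and pair the libraries. After subtraction of group means, libraries of the same batch correlated across genes at r = 0.098 (C_CD8 with Esam-hi), 0.129 (C_CD8 with Esam-lo) and 0.206 (Esam-hi with Esam-lo). The pairing comes from the labels, and a fit with the batch as a block is an alternative, as are the libraries of each comparison only, all 24 libraries, RLE factors, no filter, DESeq2 1.42.0 and each library left out in turn.

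Named genes were the 4 markers, list members and the 15 widest non-overlapping differences each way from 10 CPM. With those 15 each way left out, the 5 smallest p each way from 100 CPM were added. For the fractions, the 5 widest differences each way were named. The members, lists and rules were chosen with earlier results of these data known. On simulated counts for 16844 genes, 43 of 95 genes changed 2-fold and 76 of 95 changed 8-fold were called with the right sign, and 9 of 16654 unchanged genes were called. The simulation changed far fewer genes than were called in the data. It drew libraries independently, without a batch effect, and gave the other groups a shared mean. Its rates are therefore not those of the test on the data. Gene coordinates are GRCm38 from the annotation supplied, and promoters are RefSeq. Figures used Python 3.11.15 and matplotlib 3.10.9. Some list members are counted with their lists and not reported singly here.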

Additional observations from a re-analysis of the deposited data

How the results depend on the processing

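Of the 183 genes named above that were called between C_CD8 and CD11b+, 161 were called in the same direction in all 12 alternatives, 22 lost the call in at least 1, and none changed sign. With only the libraries of the comparison in the fit (fewer residual degrees of freedom), 1635 genes were higher against CD11b+, 1502 higher and 1642 lower against Esam-hi, 850 higher and 1246 lower against Esam-lo, and 6 higher and 71 lower in Esam-hi against Esam-lo. The comparison of the fractions also gave 533 and 777 with the replicate block of the batch, 24 and 95 with all 24 libraries, 489 and 636 without the filter and 559 and 697 with DESeq2. The cause was not tested. The test of the genotypes' difference gave 67 higher and 11 lower without the filter, and 14 and 2 with DESeq2. Leaving out 1 library gave 1650 to 2786 higher and 1765 to 2783 lower against CD11b+, 1535 to 1782 and 1766 to 1809 against Esam-hi, 980 to 1826 and 1303 to 2150 against Esam-lo, 29 to 313 and 60 to 358 between the fractions, 1243 to 1941 and 1194 to 1748 in ITD/+, and 0 to 1 and 0 to 0 for the genotypes' difference. Where that left 1 sample in a group, it was assumed to vary like the other groups. With the replicate block, 2975 genes were higher and 3129 lower against CD11b+. Apart from the genes given with a blocked value above, the block changed no call between C_CD8 and CD11b+ among the named genes. With 2 libraries a group, p-values rest on a spread pooled over the 8 groups of the fit and moderated across genes. Without the block, batch shifts stay in that spread. Genes with few reads in C_CD8 or CD11b+ are limited by depth.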
